A study of Mus musculus with 6 samples.

Results

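The miR-193 and miR-365 clusters were described in mouse liver as 5 mature miRNAs, mmu-miR-193a-3p, mmu-miR-193a-5p, mmu-miR-193b-3p, mmu-miR-193b-5p and mmu-miR-365-3p, which were taken by name from a table of 1546 mature miRNAs. All 5 were listed, and 4 of them had a mean level of 1 CPM or more over the libraries (CPM, read counts scaled to the same total in each library), as did 501 of the 1546. Male C57BL/6 mice were fed either a normal diet (NC) or a high-fat diet (MAFLD) for 16 weeks from 8 weeks of age. The high-fat diet served as a model of metabolic dysfunction-associated fatty liver disease. Small RNA was sequenced in 3 liver libraries of each group, and each library is called a liver below. The diets were the only labelled difference between the groups, and the labels name whole liver tissue without saying whether a library pooled animals.

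MiRNAs are short RNAs that are cut from a hairpin, loaded into an Argonaute protein and guided to messenger RNAs mainly by the seed near their 5′ end, and each hairpin can give a 5p and a 3p arm. The miR-193b and miR-365 pair is known from brown fat, where it is enriched and has been tied to the formation of fat cells, and miR-193a and miR-193b are also known as growth-restraining miRNAs in tumours. The mouse has a copy of the pair on chromosome 11 and another on chromosome 16, and the mature miR-365-3p made from either copy is the same RNA.

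In the mouse reference GRCm38, Mir193a (ENSMUSG00000065395.1, chr11:79711969-79712034) and Mir365-2 (ENSMUSG00000065489.1, chr11:79726400-79726511) lay on the plus strand of chromosome 11, 14365 bp apart, and overlapped no other gene of GENCODE M21. The nearest protein-coding gene was Rab11fip4, 13946 bp from Mir193a. Mir193b (ENSMUSG00000076972.2, chr16:13449523-13449601) and Mir365-1 (ENSMUSG00000065449.1, chr16:13453840-13453926) lay on the plus strand of chromosome 16, 4238 bp apart, inside an intron of the antisense RNA gene Gm15738, which is on the minus strand. The nearest protein-coding gene there was Mrtfb, 31994 bp from Mir193b.

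The mature sequences (RefSeq, GRCm38.p6) are shown because they decide which reads can be told apart and which miRNAs share a seed. Capitals mark the seed, bases 2 to 8 from the 5′ end.
miR-193a-3p: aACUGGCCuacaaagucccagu
miR-193b-3p: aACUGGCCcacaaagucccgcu
miR-193a-5p: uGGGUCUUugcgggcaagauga
miR-193b-5p: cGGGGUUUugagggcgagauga
miR-365-3p: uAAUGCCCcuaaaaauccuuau
miR-365-2-5p: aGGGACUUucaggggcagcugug
miR-365-1-5p: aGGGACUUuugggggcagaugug

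The 3p arms of miR-193a and miR-193b had the same seed and were identical at 19 of 22 bases. Counted from the 5′ end, with the base of miR-193a-3p first, they differed by U9C, A20G and G21C. The 5p arms were identical at 17 of 22 bases, and 2 of their 5 differences lay in the seed (U5G and C6U), so they belong to different seed groups. Among the listed miRNAs whose names had a RefSeq mature sequence, only miR-193b-3p shared the seed of miR-193a-3p. None of them shared that of miR-365-3p. The 5p arms of the miR-365 hairpins, which are not among the 5 miRNAs but come from the same clusters, had 1 seed and differed by C10U, A11G and C19A, with the base of miR-365-2-5p first.

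The miR-365 hairpins are shown with their mature arms in capitals, since the 3p arm is the same in both and only the 5p arm tells which of them was read.
Mir365-2: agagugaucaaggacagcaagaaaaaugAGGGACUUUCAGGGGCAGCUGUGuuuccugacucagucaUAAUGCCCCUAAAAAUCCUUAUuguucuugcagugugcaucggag
Mir365-1: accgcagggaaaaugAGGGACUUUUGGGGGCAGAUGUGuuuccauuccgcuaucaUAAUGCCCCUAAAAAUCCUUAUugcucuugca

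Depth ran from 1336935 to 4685712 reads on miRNAs per library, and 3 reads, taken as the smallest level the depth could show, stood for 0.640 to 2.24 CPM. The most abundant miRNA, miR-148a-3p, took 46.8% to 71.4% of the reads, so that the CPM of all other miRNAs moved with its share. Hepatocyte miRNAs (both arms of miR-122, miR-192-5p and miR-194-5p) summed to between 102722 and 176512 CPM. The count of calls hung on NC replicate 3, since 114 miRNAs passed an adjusted p of 0.05 in limma without it and 1 passed with it. Its miR-148a-3p share, 48.5%, lay within the 46.8% to 56.7% of the MAFLD livers. NC replicates 1 and 2 had 71.4% and 63.3%, so the tables do not settle which NC library is unusual.

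MiR-365-3p was the most abundant of the 5 miRNAs in every library. In the NC livers it was read 66, 32 and 48 times, at 25.9, 20.4 and 35.9 CPM. The MAFLD livers had 167, 213 and 62 reads of it, at 62.7, 45.5 and 40.4 CPM. Each MAFLD liver was above each NC liver, with NC replicate 3 the highest of its group, and 1 of the 4 miRNAs tested was higher without overlap of the groups, beside 15.2% of all 501 miRNAs tested. Mean levels were 27.4 ± 7.87 CPM (NC, SD, n = 3) and 49.5 ± 11.7 CPM (MAFLD, SD, n = 3). On the log2(CPM + 1) scale the difference was 0.84 (standard error 0.43, 95% interval −0.082 to 1.77). By limma with Benjamini-Hochberg adjustment the adjusted p was 0.307, and 0.0713 before adjustment. The exact permutation test over the 6 libraries gave a two-sided p of 0.1, the smallest that 3 livers against 3 allow.

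The higher level of miR-365-3p has to be read beside a shift of the whole profile. The 501 log2 fold changes had a median of 0.43, and miR-365-3p lay at percentile 76.8 of them. After median-ratio scaling, which moves the median of all miRNAs to 0.044, miR-365-3p differed by 0.39 on the log2 scale (adjusted p = 0.561 from limma). On that scale the groups overlapped, at 26.3 to 40.9 in NC and 30.9 to 48.6 in MAFLD livers. They also overlapped when CPM was computed without miR-148a-3p, at 55.6 to 90.4 and 83.5 to 118 CPM. The endothelial miRNAs, both arms of miR-126a, were also higher in MAFLD livers on the CPM scale. They summed to 4710 to 6587 CPM in NC and to 7659 to 10155 CPM in MAFLD livers, without overlap. This sum was not compared on the other scales, and the part of these miRNAs in the difference was not tested. In liver tissue as a whole, a change in the number of cells of a type and a change in the RNA per cell cannot be told apart.

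**Figure D1:**
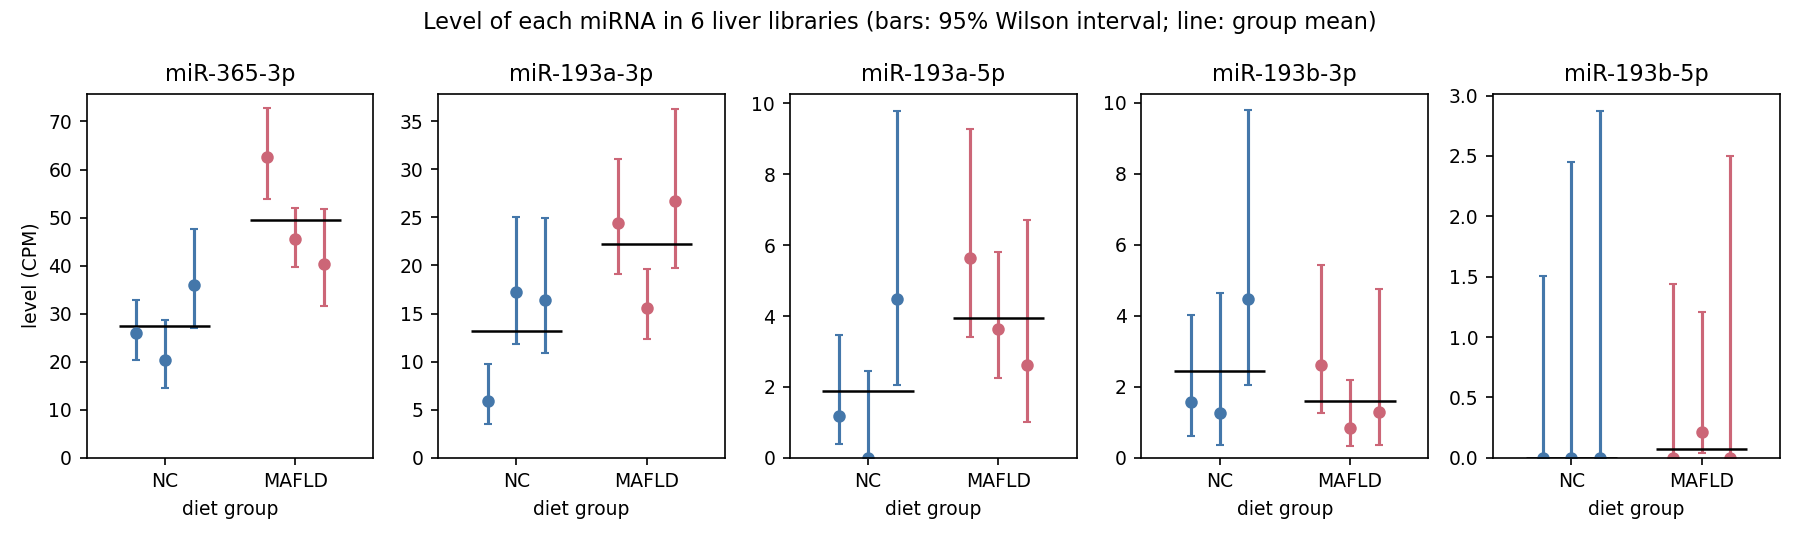
Level in CPM of the 5 miRNAs in each library, with 3 NC livers in blue and 3 MAFLD livers in red, bars for the 95% Wilson interval of the read count and a black line for the group mean. Only for miR-365-3p, from 20.4 to 35.9 against 40.4 to 62.7 CPM, do the points of the groups not overlap.

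MiR-193a-3p, the arm of the miR-193a hairpin that made up most of its reads, came next in abundance. It was read 15, 27 and 22 times in the NC livers, at 5.88, 17.2 and 16.5 CPM. The MAFLD livers had 65, 73 and 41 reads, at 24.4, 15.6 and 26.7 CPM. NC replicate 1 was the lowest, and MAFLD replicate 2 lay below NC replicates 2 and 3, so the groups overlapped. Mean levels were 13.2 ± 6.33 CPM (NC, SD, n = 3) and 22.2 ± 5.87 CPM (MAFLD, SD, n = 3), a log2 difference of 0.81 (standard error 0.51, 95% interval −0.29 to 1.90, adjusted p = 0.409 from limma). It was 0.35 without NC replicate 1, 0.34 with edgeR and 0.32 with DESeq2.

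MiR-193a-5p, the other arm of that hairpin, was scarce. It was read 3, 0 and 6 times in the NC livers, at 1.18, 0 and 4.49 CPM. It was read 15, 17 and 4 times in the MAFLD livers, at 5.63, 3.63 and 2.61 CPM. NC replicate 3 lay above MAFLD replicates 2 and 3, so the groups overlapped. The count of 0 in NC replicate 2 had a 95% Wilson interval up to 2.45 CPM, where 3 reads stood for 1.91 CPM. The log2 difference was 1.07 (standard error 0.66, 95% interval −0.33 to 2.47, adjusted p = 0.387 from limma). It was 0.47 without NC replicate 2, 1.70 without NC replicate 3, and 2.21 and 0.42 with 0.1 and 5 CPM added in place of 1.

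MiR-193b-3p, the mature arm that carries the miR-193 seed on chromosome 16, was near the limit of detection. It was read 4, 2 and 6 times in the NC livers, at 1.57, 1.27 and 4.49 CPM, and 7, 4 and 2 times in the MAFLD livers, at 2.63, 0.854 and 1.30 CPM. The highest value was in NC replicate 3, and the groups overlapped. The means were 2.44 ± 1.78 CPM (SD, n = 3) and 1.59 ± 0.921 CPM (SD, n = 3). The log2 difference was −0.35 (standard error 0.60, 95% interval −1.63 to 0.93, adjusted p = 0.785 from limma), and it was 0.044 without NC replicate 3. It was −0.63 after median-ratio scaling, −0.70 without miR-148a-3p, −0.97 with edgeR and −0.996 with DESeq2. MiR-193b-5p was read once in all 6 libraries, in MAFLD replicate 2, and was not tested.

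Of the 4 miRNAs tested, 0 had an adjusted p under 0.05 in limma, beside 0.200% of all 501. At an unadjusted p under 0.05 there were also 0 of the 4, beside 18.0% of all 501. None of the 4 passed the adjusted p with edgeR or DESeq2 on the recovered reads. The log2 difference was above 0 for 3 and below 0 for 1, with a median of 0.82 over the 4 and of 0.43 over all 501. The closest to the threshold were miR-365-3p and miR-193a-5p without NC replicate 3, with unadjusted p of 0.0152 and 0.0156 and an adjusted p of 0.0588 for each from limma. A p that misses the threshold does not show that the levels were equal, and the 95% intervals above are wide.

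**Figure D2:**
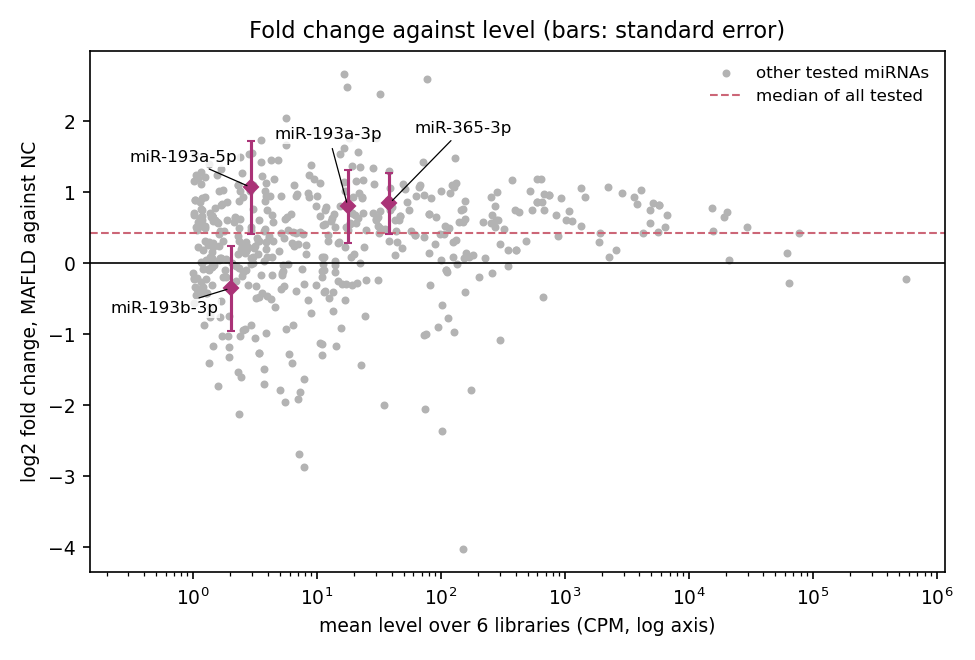
Log2 fold change of MAFLD against NC livers (vertical axis) against the mean level in CPM (horizontal, log axis) for the 501 miRNAs tested, with the 4 miRNAs of the clusters as diamonds with their standard error. The arms miR-365-3p (0.84), miR-193a-3p (0.81) and miR-193a-5p (1.07) lie above the median of all tested (0.43, dashed), and miR-193b-3p (−0.35) lies below it.

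Ratios of reads within a library do not depend on how the library was scaled. The log2 ratios tested were taken after adding 1 CPM to each level, which draws those of scarce arms towards 0. MiR-365-3p was read 3.47, 1.10 and 1.71 times as often as the miR-193 3p arms together in the NC livers and 2.32, 2.77 and 1.44 times as often in the MAFLD livers. The ranges overlapped, and the log2 ratio differed by 0.19 (two-sided exact permutation test, p = 0.8). MiR-193a-3p was read 3.75, 13.5 and 3.67 times as often as miR-193b-3p in the NC livers and 9.29, 18.2 and 20.5 times as often in the MAFLD livers. The log2 ratio of miR-193b-3p to miR-193a-3p was −2.03 ± 0.85 (SD, n = 3) in NC and −3.19 ± 0.39 (SD, n = 3) in MAFLD livers by an exact permutation test with p = 0.2, and the groups overlapped at NC replicate 2. Between the arms of a hairpin, the log2 ratio of 3p to 5p differed by −0.27 for miR-193a (exact permutation p = 1). It differed by −0.44 for miR-193b (exact permutation p = 0.5). MiR-193b-5p had 1 read in all libraries together, so the value for miR-193b mostly reflects the level of miR-193b-3p, which depends on scaling. It therefore cannot compare the arms. After adjustment over these 4 ratios, the exact permutation p was 0.8 for the ratio of miR-193b-3p to miR-193a-3p and 1 for the other three.

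The 3p arm had most of the reads of miR-193a, of miR-193b and of the miR-365 hairpins as a sum. Over all libraries it made up 243 of 288 reads of miR-193a (84.4%, 95% Wilson interval 79.7 to 88.1%), 25 of 26 reads of miR-193b (96.2%, 81.1 to 99.3%) and 588 of 627 reads of the miR-365 hairpins (93.8%, 91.6 to 95.4%). By library the share of the 3p arm of miR-193a ran from 78.6% to 100% in NC and from 81.1% to 91.1% in MAFLD livers. The share of miR-365-3p ran from 84.2% to 95.7% in NC and from 92.5% to 97.3% in MAFLD livers. Both pairs of ranges overlapped.

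Since miR-365-3p comes from both clusters, only the other arms tell where reads came from. Both arms of miR-193a and miR-365-2-5p come from chromosome 11, and together they had 325 of 353 such reads (92.1%). Both arms of miR-193b and miR-365-1-5p come from chromosome 16 and had 28. The split was seen in both hairpins of a pair, since miR-365-2-5p was read 37 times and miR-365-1-5p was read 2 times in all libraries together. MiR-365-2-5p had means of 2.95 ± 1.67 CPM (NC, SD, n = 3) and 2.92 ± 1.82 CPM (MAFLD, SD, n = 3), a log2 difference of −0.016 (standard error 0.60, 95% interval −1.29 to 1.26, adjusted p = 0.995 from limma).

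The chromosome 16 cluster gave 4 of 25, 3 of 35 and 6 of 40 of these reads in the NC livers, which is 16%, 8.57% and 15%. In the MAFLD livers it gave 7 of 100, 5 of 101 and 3 of 52, which is 7%, 4.95% and 5.77%. Each MAFLD liver had a smaller share than each NC liver, with a mean of 13.2 ± 4.03% (SD, n = 3) against 5.91 ± 1.03% (SD, n = 3). The two-sided exact permutation test gave p = 0.1, the smallest possible, without adjustment, and this share was added after the values were seen. The 95% Wilson intervals of all 6 libraries overlapped, since the highest lower bound was 7.06%, in NC replicate 3, and the lowest upper bound was 11.1%, in MAFLD replicate 2. With the 3p arms of miR-193 alone the exact permutation p was 0.2. In level, the chromosome 16 arms summed to 1.57, 1.91 and 4.49 CPM in NC and to 2.63, 1.07 and 1.95 CPM in MAFLD livers. The chromosome 11 arms summed to 8.24, 20.4 and 25.4 CPM in NC and to 34.9, 20.5 and 31.9 CPM in MAFLD livers. The groups overlapped for both sums.

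**Figure D3:**
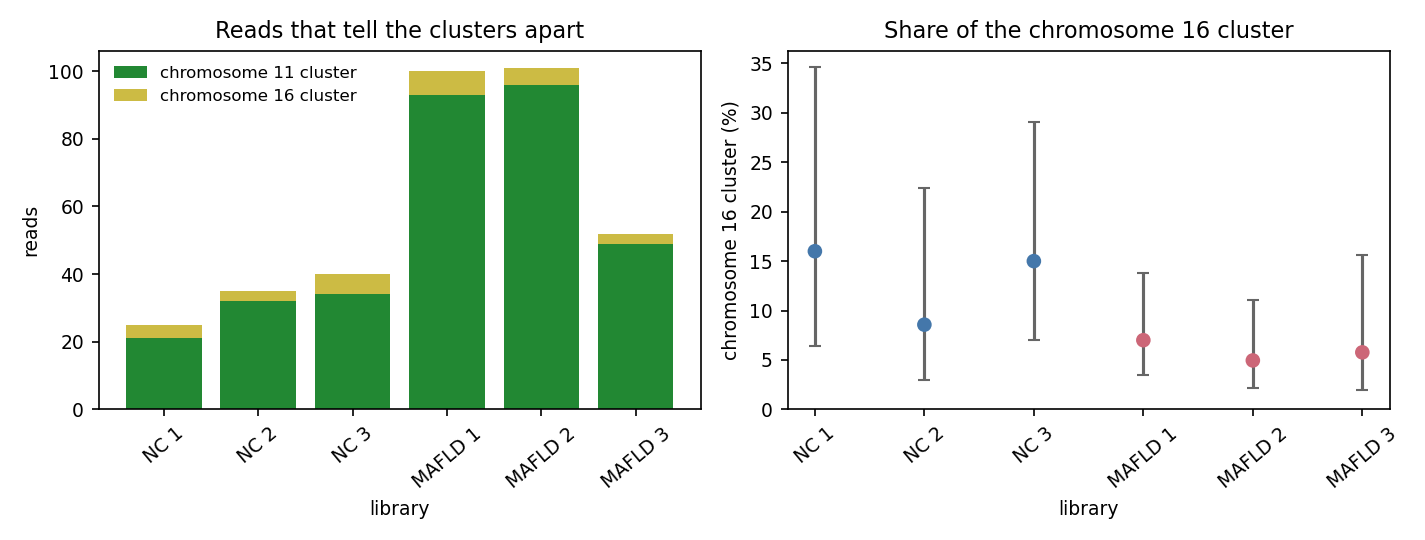
Left, reads of the arms that come from the chromosome 11 cluster (green) or the chromosome 16 cluster (yellow) in each library. Right, the share of the chromosome 16 cluster in percent with its 95% Wilson interval, from 8.57 to 16% in NC (blue) and from 4.95 to 7% in MAFLD livers (red), where all intervals overlap.

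The profiles most like those of the clusters were looked up among the 236 other miRNAs whose mean reached 10 CPM. They were ranked by Pearson's r of log2(CPM + 1) over the 6 libraries, in which all miRNAs share depth and scaling. Taking the 3 highest of 236 over 6 libraries selects for a high r. For miR-365-3p they were miR-30c-5p (r = 0.991), miR-103-3p (r = 0.985) and miR-122-3p (r = 0.981), the passenger arm of the hepatocyte miR-122. Each of these was also higher in all MAFLD than in all NC livers, as were 15.2% of all 501 miRNAs tested. That follows largely from picking them by likeness to miR-365-3p, which itself separated the groups in CPM. MiR-30c-5p, for example, stood at 1114 to 1982 CPM in NC and 2390 to 3827 CPM in MAFLD livers. The more abundant arm, miR-122-5p, had means of 60580 CPM in NC and 64494 CPM in MAFLD livers, with overlap (log2 difference 0.14). For miR-193a-3p the most alike were miR-32-5p (r = 0.979), the leukocyte miR-150-5p (r = 0.972) and miR-142a-5p (r = 0.944), which is typical of blood cells. The leukocyte list used below also holds miR-142a-3p and miR-223-3p, which were not among these 3. A shared cell source was not tested. MiR-193a-3p had an r of 0.537 with miR-365-3p and stood in position 155 of 237 miRNAs by likeness to it. 

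The miRNAs reported to favour or to hinder the formation of fat cells were listed as a setting for the clusters. Of 21 that favour it, 20 were tested and 0 passed the adjusted p of 0.05 in limma. Before adjustment 8 of the 20 had p under 0.05 with a higher level, beside 13.4% of all 501, and 0 with a lower one, beside 4.59%. The median log2 difference of the list was 0.68, beside 0.43 over all 501. Of 16 that hinder it, 14 were tested and 0 passed in limma. Before adjustment 4 of the 14 had p under 0.05 with a higher level and 0 with a lower one, beside the same 13.4% and 4.59%, and the median was 0.71. The untested were miR-196a-5p in the first list and miR-133b-3p and miR-448-3p in the second. The medians of both lists were above that of all miRNAs tested. The 501 include scarce miRNAs, whose folds the added 1 CPM draws towards 0. When the filter was raised to 10 CPM, 52 of 238 miRNAs had an unadjusted p under 0.05 with a higher level and 7 with a lower one. In the first list 8 of 19 were then higher and 0 lower, and in the second 3 of 11 and 0. The medians under that filter were 0.86 and 0.75, beside 0.56 over the 238.

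The counts in the lists moved with the scaling and with NC replicate 3. After median-ratio scaling 7.19% of all 501 had such a p with a higher level and 8.98% with a lower one. On that scale 6 of the 20 were higher and 1 was lower, with a median of 0.22, and 2 of the 14 were higher and 0 lower, with a median of 0.29. With quantile normalization the median of the first list, 0.093, fell below the 0.11 of all miRNAs. With edgeR, where 0 of either list passed the adjusted p, the counts before adjustment were 5 higher and 2 lower in the first list and 1 higher and 1 lower in the second, beside 7.39% higher and 9.98% lower over all 501. With DESeq2 1 miRNA of each list passed the adjusted p, beside 5.59% of all 501. Without NC replicate 3, 12 of the 20 and 10 of the 14 passed it, beside 22.8% of all 501.

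Among those that favour fat cells, the largest log2 differences with p under 0.05 before adjustment were 1.49 for miR-455-3p and 1.08 for miR-107-3p. MiR-455-3p, tied to brown fat, stood at 76.5, 38.2 and 94.99 CPM in NC and at 216, 204 and 143 CPM in MAFLD livers, without overlap (standard error 0.43, adjusted p = 0.152 from limma). The more abundant arm of its hairpin, miR-455-5p, is in the same list. Its means were 1684 CPM in NC and 2079 CPM in MAFLD livers, with overlap. The log2 difference of miR-455-5p was 0.30 (standard error 0.29, adjusted p = 0.582 from limma). MiR-107-3p, a regulator of insulin sensitivity, stood at 55.3, 54.2 and 147 CPM in NC and at 216, 100.3 and 195 CPM in MAFLD livers, with overlap at NC replicate 3 (standard error 0.47, adjusted p = 0.247 from limma). Among those that hinder them, miR-155-5p, an inflammatory miRNA, had a log2 difference of 1.53 (standard error 0.63, adjusted p = 0.221 from limma) and went from 2.35, 5.73 and 15.7 CPM in NC to 39.8, 10.7 and 18.2 CPM in MAFLD livers, with overlap. MiR-34a-5p, a target of p53, had a log2 difference of 1.43 (standard error 0.44, adjusted p = 0.152 from limma), from 30.6, 29.3 and 56.1 CPM in NC to 141, 74.1 and 98.4 CPM in MAFLD livers, without overlap.

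**Figure D4:**
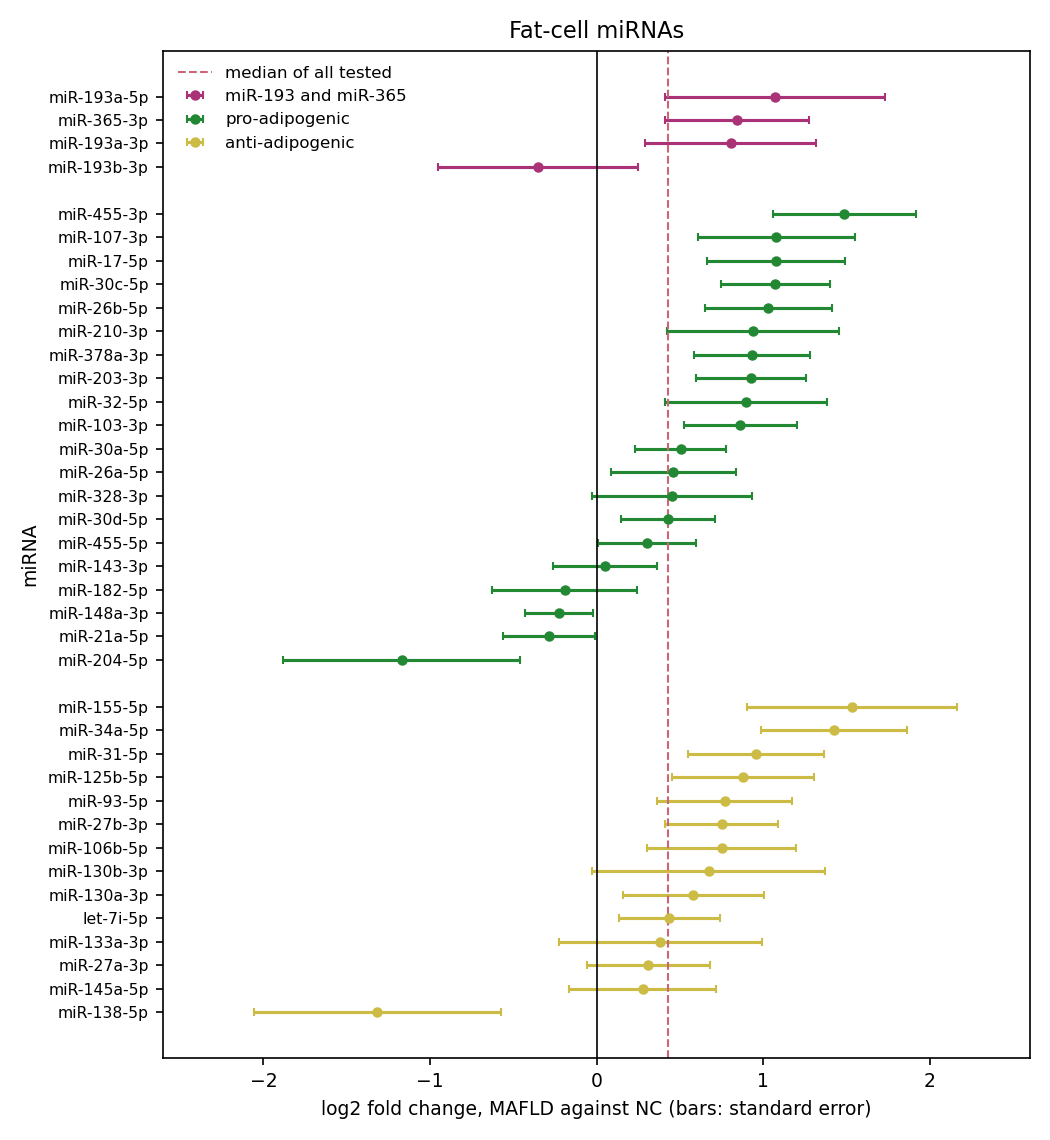
Log2 fold change of MAFLD against NC livers with its standard error for the 4 tested miRNAs of the clusters (purple), 20 miRNAs that favour fat-cell formation (green) and 14 that hinder it (yellow), with the median of all 501 as a dashed line at 0.43. The value of miR-193b-3p (−0.35) lies below 0, and those of miR-365-3p (0.84) and miR-193a-3p (0.81) lie above the medians of both lists (0.68 and 0.71).

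Other cell types were checked by the summed CPM of their miRNAs. The groups overlapped for the hepatocyte, skeletal muscle, neuron, erythroid, leukocyte, mesenchymal and biliary lists, and the leukocyte list of 4 miRNAs, with 0 of them at 0 in all libraries, ran from 133 to 231 CPM in NC and from 179 to 313 CPM in MAFLD livers. The neuron list summed to 463 and 744 CPM in NC replicates 1 and 2 and to 44.2 to 63.9 CPM in the other libraries. The skeletal muscle list ran from 37.1 to 241 CPM, and the biliary list was highest in NC replicate 3, at 860 CPM against 192 to 428 CPM elsewhere. No marker list of fat cells was used, so RNA of fat tissue was not tested.

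**Figure D5:**
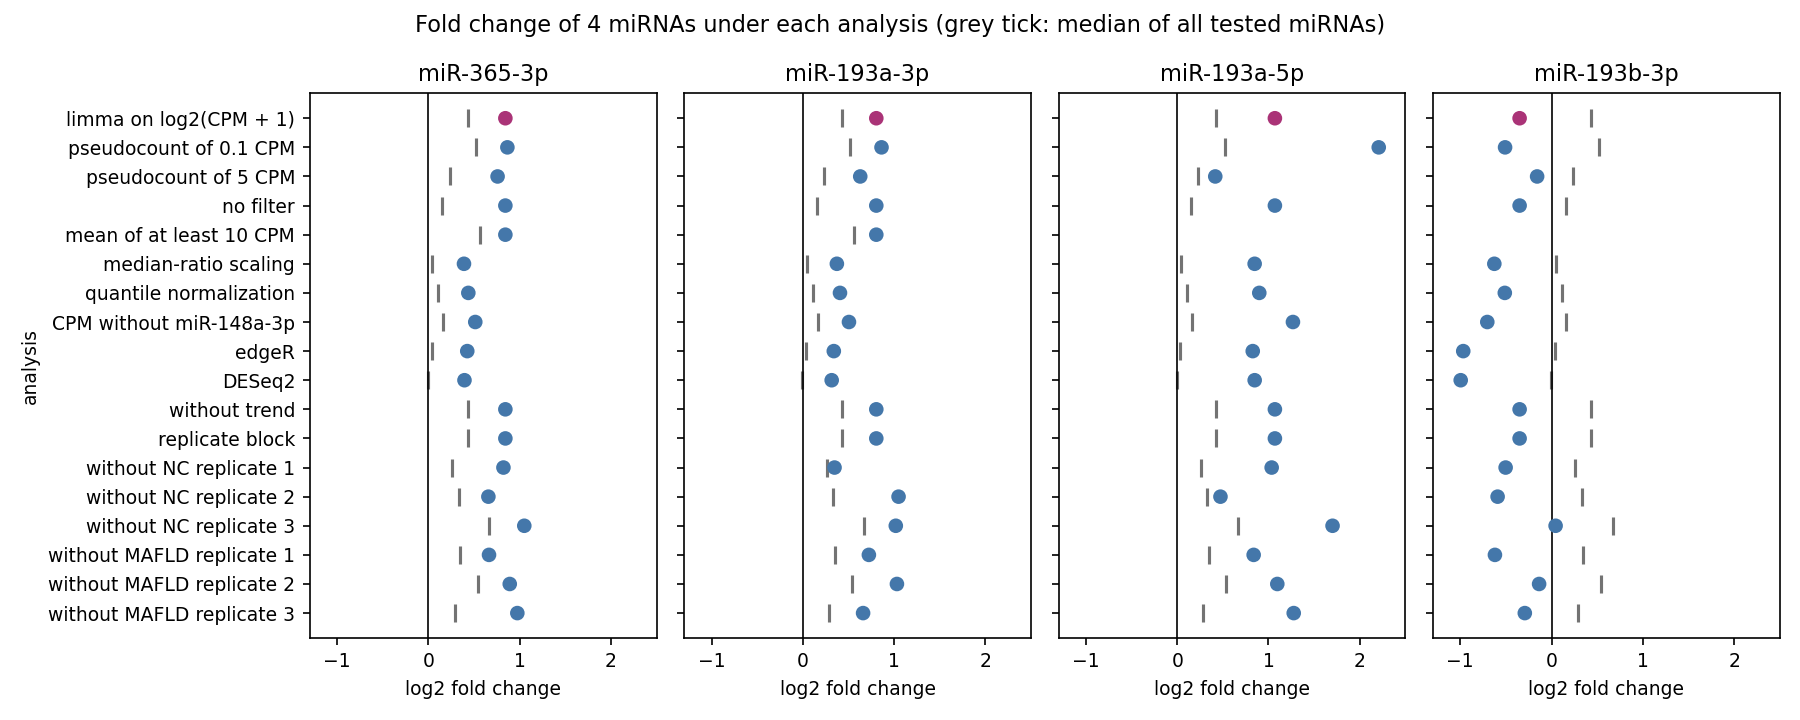
Log2 fold change of the 4 tested miRNAs (points, the purple one from limma on log2(CPM + 1)) and median of all miRNAs in the same analysis (grey ticks) under each analysis. MiR-365-3p stays between 0.39 and 1.05, miR-193a-3p between 0.32 and 1.05 and miR-193a-5p between 0.42 and 2.21, and miR-193b-3p runs from −0.996 to 0.044.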

How the data were processed

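Small RNA of mouse liver was sequenced in 3 NC and 3 MAFLD libraries, 1 per replicate, after a treatment that removes RNA modifications blocking adapter ligation. The submitters' processing notes name FastQC, cutadapt, Bowtie, edgeR and GRCm38, without versions. The authors deposited CPM values, scaled to the reads on all listed miRNAs of a library. Dividing by the smallest value above 0 recovered whole reads for 100% of values (within 0.02). The intervals and the limit of 3 reads cover counting error only.

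MiRNAs whose mean reached 1 CPM were tested on the log2(CPM + 1) scale with limma 3.58.1 (R 4.3.3, eBayes, trend), with Benjamini-Hochberg adjustment over all of them. The added 1 CPM draws the folds of scarce miRNAs towards 0. Single values and ratios were compared with exact permutation tests in scipy 1.17.1. The labels number the libraries without saying that each came from a separate mouse, so p-values measure only the spread between these libraries, which may be technical. Alternatives included edgeR 4.0.16 and DESeq2 1.42.0 on the recovered reads. The fits were run on simulated data that did not copy the differing miR-148a-3p shares of these libraries. That check therefore says nothing on the CPM scaling under such a shift. For the arms with 20 or more reads in all, no other miRNA had reads within 2% or 1 read of theirs in every library. The names were matched to RefSeq sequences, and 5 of 5 were found. All 5 miRNAs are described. By rule, the text also names the other arms of the hairpins, the 3 most alike miRNAs and, of each fat-cell list, the 2 with the largest difference in each direction at an unadjusted p under 0.05. Beyond this rule, miR-455-5p and miR-122-5p are given as the other arms of miRNAs named. The members, lists and tests were chosen with earlier results of these data known. The HepG2 experiments that the labels describe were not analysed here.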

Additional observations from a re-analysis of the deposited data

How the results depend on the processing

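MiR-365-3p, miR-193a-3p and miR-193a-5p stayed higher in MAFLD livers in every alternative that gave a value (17, 17 and 16), and none of the 4 miRNAs passed the adjusted p in any. Pseudocounts of 0.1 and 5 CPM, other scalings, edgeR and DESeq2 moved the log2 difference of miR-365-3p between 0.39 and 0.86. Leaving out 1 library gave 0.66 to 1.05 for miR-365-3p, 0.35 to 1.05 for miR-193a-3p, 0.47 to 1.70 for miR-193a-5p and −0.62 to 0.044 for miR-193b-3p, which reversed without NC replicate 3. The filter at 10 CPM left miR-193a-5p and miR-193b-3p untested, and miR-193b-5p entered only the fit without a filter.

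Of all miRNAs, the 1 past the adjusted p became 11 without the filter, 2 with median-ratio scaling, 2 when miR-148a-3p was taken out, 28 with DESeq2, 0 without the trend (74 at an unadjusted p under 0.05) and 0 to 114 when 1 library was left out. It was 114 without NC replicate 3, 3 without MAFLD replicate 3 and 0 without each other library, where 40 to 89 had an unadjusted p under 0.05. The 90 at an unadjusted p under 0.05 (67 higher, 23 lower) became 59 at 10 CPM and 40 to 177 when 1 library was left out. Their split became 36 higher and 45 lower after scaling by median ratios, 38 to 40 after quantile normalization, 52 to 38 when miR-148a-3p was taken out, 37 to 50 in edgeR and 29 to 54 in DESeq2. The cause was not tested.

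A fit with the replicate block had 5 miRNAs past the adjusted p and 92 past the unadjusted p. MiR-365-3p then had an adjusted p of 0.332, and the block changed no call of the 4 miRNAs. Mice on different diets cannot be the same animals. The deviations of same-numbered livers had correlations of 0.012, −0.020 and −0.046, so no other pairing by number was seen. With 3 livers per group, these values cannot show that no batch was shared.

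For the ratios, the values here are differences in log2 ratio, MAFLD minus NC. The difference for miR-193a-3p to miR-193a-5p (−0.27) was −1.35 with a pseudocount of 0.1 CPM and reversed to 0.21 with 5 CPM. It lay between −0.69 and 0.57 with 1 library left out, above 0 without NC replicate 2. The difference for miR-365-3p to the miR-193 3p arms (0.19) lay between −0.17 and 0.59 with 1 library left out. It was below 0 without NC replicate 2 (−0.17) and without MAFLD replicate 2 (−0.0031). The differences for miR-193b-3p to miR-193a-3p and to miR-193b-5p stayed below 0. They ran from −1.64 to −0.85 and from −0.76 to −0.049 with 1 library left out. With pseudocounts of 0.1 and 5 CPM they were −1.37 and −0.79, and −1.06 and −0.18. The share of the chromosome 16 cluster differed by −9.59 to −5.88 percentage points with 1 library left out, and by −9.94 with the 3p arms of miR-193 alone, both chosen after seeing the data. With 3 to 7 reads of that cluster per library, counting error limits its precision.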
